A study of Mus musculus with 20 samples.

Results

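Collagens, laminins and their basement membrane partners make up most of the fibrous and sheet-like extracellular matrix. The 60 genes described here are every gene whose symbol is that of a collagen alpha chain (Col, a number, a and a number) or of a laminin chain (Lama, Lamb or Lamc and a number), with Nid1, Nid2, Hspg2, Sparc and Fn1. They are 60 of the 24421 genes counted. The rule uses the symbols and no measured value, though it was chosen with earlier results of these data known. They were treated as 11 fibrillar collagens, 20 basement membrane genes (the collagen IV chains, laminins, nidogens and Hspg2), 27 other collagens, and Sparc and Fn1, 2 matrix-associated proteins of other kinds.

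The question was whether these genes differ between cTKO mice and littermate controls. The cTKO mice carry floxed App, Aplp1 and Aplp2 and a Camk2a-Cre transgene, so that the APP family is lost after birth from excitatory neurons of the forebrain and not from glia, vessels or meninges. The controls carry the floxed alleles without Cre, and the labels call them wild type. Both groups were of a mixed C57BL/6J and 129 background, 3 months old, and of both sexes. Neocortex and hippocampus were each sequenced in 5 libraries per genotype, 20 libraries in all. RNA was taken with one kit from the neocortex and another from the hippocampus, so region and kit cannot be told apart.

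Fibrillar collagens (types I, II, III, V, XI, XXIV and XXVII) assemble into cables and in the brain are found mainly in the meninges and around larger vessels. Basement membranes are thin sheets in which a laminin network and a collagen IV network are joined by nidogens and the proteoglycan perlecan, the product of Hspg2. They line brain capillaries and the pial surface, and are made by endothelial cells, pericytes, astrocytes and fibroblasts. The other collagens include collagen VI, which forms beaded filaments, the network collagens VIII and X, and membrane-spanning collagens such as XXV, some of which neurons make.

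Sequencing gave 12169474 to 24842764 counts in a neocortical library and 19552353 to 25331954 counts in a hippocampal one, and the 60 genes took 0.0871% to 0.195% of a library. Levels are given as CPM, the usual count of a gene relative to its library's total, here scaled by TMM, and 3 counts correspond to 0.123 to 0.247 CPM. App ranged from 1502 to 1812 CPM in control and from 332 to 407 CPM in cTKO neocortex, and from 1378 to 1648 CPM in control and from 432 to 461 CPM in cTKO hippocampus. Aplp1 and Aplp2 did not overlap between the genotypes in either region, and all 3 genes were lower in cTKO mice at FDR values of 3.31e-05 or less (edgeR quasi-likelihood test).

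3 libraries stood apart in cell type markers. 10 markers of embryonic blood and trunk, such as embryonic globins and Hox genes, summed to 305 CPM in cTKO neocortex library 5 and 198 CPM in cTKO hippocampus library 4, against 1.65 CPM or less in each of the other 18 libraries, and 3 and 1 of the 10 were still at 0 counts there. 6 mitotic markers summed to 138 and 112 CPM in these libraries and to 10.5 CPM or less elsewhere. Embryonic globins and trunk Hox genes are not known as products of adult forebrain. 7 choroid plexus markers summed to 2756 CPM in control hippocampus library 3, with none at 0 counts, against 78.8 to 610 CPM in the other hippocampal libraries. The expected markers were present. The 4 of excitatory neurons summed to 7165 to 7938 CPM in control and 6242 to 7476 CPM in cTKO neocortex. In the hippocampus they summed to 9037 to 10323 CPM in control and 8022 to 9841 CPM in cTKO mice. Results on the 2 cTKO libraries are therefore given with and without them. The tissue is bulk, so fewer cells of a type and less RNA per cell cannot be told apart.

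The promoters of the members the genotype results turn on are shown first, as RefSeq gives them on GRCm38.p6 from 250 bases before to 50 bases after a transcript's start. RefSeq promoters were held for 43 of the 60 members. Col6a1 and Col6a2 encode chains of the same collagen VI molecule and lie on the minus strand of chromosome 10, Col6a1 at chr10:76708792-76726044 and Col6a2 at chr10:76595756-76623630. Their promoters are at chr10:76725995-76726294 and chr10:76623355-76623654. Col27a1 (chr4:63214009-63334991) and Col24a1 (chr3:145292472-145552013) encode the minor fibrillar collagens and lie on the plus strand, with promoters at chr4:63215162-63215461 and chr3:145292222-145292521. The Col27a1 window lies wholly inside the gene. It and the Col6a2 window belong to transcript starts downstream of the outermost end of the gene, so other starts of these genes are not shown. Capitals mark letters of 5 short motifs searched on both strands, TATAAA for the TATA box, CCAAT for the CCAAT box, GGGCGG for the GC box, TGACTCA for AP-1 and TGACGTCA for the cyclic AMP response element. Each of these 4 promoters held 1 kind of motif, so no match overlaps another motif.
Col6a1: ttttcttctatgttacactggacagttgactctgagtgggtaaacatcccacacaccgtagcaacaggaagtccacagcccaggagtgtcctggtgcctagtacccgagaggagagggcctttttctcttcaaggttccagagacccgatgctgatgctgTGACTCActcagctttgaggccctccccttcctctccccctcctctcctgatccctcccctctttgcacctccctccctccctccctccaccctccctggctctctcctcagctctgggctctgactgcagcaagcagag
Col6a2: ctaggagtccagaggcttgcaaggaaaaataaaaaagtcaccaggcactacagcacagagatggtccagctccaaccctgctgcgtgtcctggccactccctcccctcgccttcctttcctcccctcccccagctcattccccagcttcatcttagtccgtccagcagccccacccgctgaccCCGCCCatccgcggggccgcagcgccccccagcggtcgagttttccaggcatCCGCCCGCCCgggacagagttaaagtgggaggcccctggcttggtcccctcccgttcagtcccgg
Col27a1: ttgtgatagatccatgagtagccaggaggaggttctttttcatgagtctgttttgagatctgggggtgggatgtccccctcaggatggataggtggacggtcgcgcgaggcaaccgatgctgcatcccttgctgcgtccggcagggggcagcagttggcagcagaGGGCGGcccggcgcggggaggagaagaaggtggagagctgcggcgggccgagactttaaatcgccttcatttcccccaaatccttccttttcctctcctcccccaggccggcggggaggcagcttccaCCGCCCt
Col24a1: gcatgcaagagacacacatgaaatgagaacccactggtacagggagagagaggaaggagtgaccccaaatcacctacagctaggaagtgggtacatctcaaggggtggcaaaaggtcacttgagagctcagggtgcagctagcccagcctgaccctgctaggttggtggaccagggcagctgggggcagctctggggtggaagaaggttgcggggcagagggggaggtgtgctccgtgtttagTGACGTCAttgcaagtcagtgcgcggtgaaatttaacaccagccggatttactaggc
The Col6a1 promoter held TGACTCA, the letters bound by AP-1 factors, which 5.20% of 32851 promoters hold and no other member promoter did. The Col6a2 promoter held 3 matches of GGGCGG on the reverse strand, the letters of the GC box. GGGCGG was in 59.6% of the 47 member promoters and in 35.7% of all promoters. The Col24a1 promoter held TGACGTCA, the letters of the cyclic AMP response element, which 1.79% of all promoters and no other member promoter hold. TATAAA was in 10.6% of member promoters and 13.6% of all, and CCAAT in 31.9% and 37.4%. The motifs were chosen with these sequences in view, and a match is a description of letters, not a bound site.

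The levels of the members spanned a wide range. On the scale of CPM per kb of exon, Sparc, which encodes a collagen-binding glycoprotein of glia and vessels, was highest in both regions of controls at 49.4 ± 4.92 in the neocortex and 100 ± 9.78 in the hippocampus (mean ± SD, n = 5). In the neocortex, Col6a1 (14.4 ± 2.57), Col4a2 (12.2 ± 1.56), Fn1 (8.83 ± 0.965), Col19a1 (8.18 ± 1.16), Col4a1 (8.13 ± 0.419) and Lamc1 (6.79 ± 0.256) followed, and Fn1, Col19a1 and Col4a1 did not differ beyond their SD. In the hippocampus, Col4a2 (8.21 ± 0.834), Col25a1 (6.68 ± 0.779), Fn1 (6.39 ± 0.992), Lamc1 (5.85 ± 0.169) and Col4a1 (5.68 ± 1.01) followed Sparc, and the last 4 of these overlapped within their SD. Col4a1 and Col4a2 make the common collagen IV network, Lamc1 the gamma chain of most laminins, Fn1 fibronectin, Col25a1 a membrane collagen of neurons, and Col19a1 a collagen that some cortical interneurons express. The highest fibrillar levels in controls were lower, those of Col5a1 (4.67 ± 0.914), Col11a2 (2.47 ± 0.298) and Col24a1 (1.47 ± 0.345) in the neocortex and of Col11a2 (2.32 ± 0.319), Col1a1 (1.84 ± 0.852) and Col1a2 (1.69 ± 0.865) in the hippocampus.

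Of the 60 members, 52 passed the filter of CPM above 1 in at least 5 libraries in the neocortex and 48 in the hippocampus. 5, Col7a1, Col14a1, Col24a1, Col28a1 and Lamb3, passed in the neocortex and not in the hippocampus, and Col8a2 passed in the hippocampus and not in the neocortex. Col2a1, Col4a3, Col4a4, Col6a6, Col9a1, Col10a1 and Col17a1 passed in neither. In the GENCODE annotation 38 members overlap another gene, 26 of them on the opposite strand, and the counting strand is not given in the sources used here, so that reads of Col18a1 and Slc19a1, Nid2 and Rtraf, Col9a3 and Tcfl5, or Lamb3 and Hsd11b1 with G0s2 could not be told apart where these genes overlap.

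In the neocortex, 0 of 52 members differed between genotypes at an FDR under 0.05, where 0.188% of the 13843 genes tested did (edgeR quasi-likelihood test, Benjamini-Hochberg adjustment over all genes). At an unadjusted p under 0.05 there were 22 members, 18 higher and 4 lower in cTKO mice, where 5.57% of all genes tested were higher and 4.86% lower. With other tests there were 4 calls each by the exact and likelihood ratio tests of edgeR, and 3 by DESeq2. The shares of all genes called by those tests are not given here, so these counts were not compared with them. Without cTKO neocortex library 5, Col24a1 was called, lower in cTKO mice, where 0.966% of 13763 genes were called. The median log2 fold change over the 52 members was 0.29 with this library and 0.08 without it, beside 0.01 and -6.34e-04 over all genes tested. The study's own edgeR run, whose test it does not name, called more neocortical genes at an FDR under 0.05. Terms of extracellular structure and matrix were among the most enriched in its list.

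Col24a1 has a collagen domain like that of invertebrate fibrillar collagens and is known to be made by cortical excitatory neurons. It measured 8.54, 10.8, 9.31, 12.3 and 15.2 CPM in control and 6.37, 6.81, 5.73, 6.05 and 10.5 CPM in cTKO neocortex libraries 1 to 5. Of the cTKO libraries, 4 were below every control and library 5, the one with the embryonic markers, lay among the controls. The log2 fold change was -0.65 ± 0.19 with an FDR of 0.22, and without library 5 it was -0.84 ± 0.16 with an FDR of 0.029 (edgeR quasi-likelihood test). The exact permutation p over all 10 libraries was 0.0238 (two-sided). In the hippocampus it was close to the floor, with 2 to 4 counts in each control library and 1, 1, 6, 10 and 12 counts in the cTKO libraries, and it did not pass the filter there.

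Col24a1 is far higher in neocortex than in hippocampus, so markers of the hippocampus in the neocortical libraries are given beside it. The 4 hippocampal markers summed to 183 to 224 CPM in control and 239 to 508 CPM in cTKO neocortex, with Wfs1 the bulk of the sum and called higher in cTKO mice (log2 fold change 0.94 ± 0.15, FDR 0.031), while Prox1, a granule cell marker, was at 10.04 to 16.1 CPM in control and 9.26 to 10.8 CPM in cTKO neocortex. In the hippocampus itself the same 4 markers summed to 290 to 401 CPM in control and 372 to 442 CPM in cTKO mice. The 4 excitatory neuron markers summed to 7165 to 7938 CPM in control and 6242 to 7476 CPM in cTKO neocortex. None of those 4 was called, and their median log2 fold change was -0.03. The part of these markers in the Col24a1 result was not tested.

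Among the fibrillar collagens, 8 of 10 had a log2 fold change above 0 in the neocortex and 7 had an unadjusted p under 0.05 in that direction, though none was called. Col3a1, of collagen III, had the largest, 2.46 ± 0.73 with an FDR of 0.22. It measured 3.41, 3.53, 10.7, 4.04 and 5.98 CPM in controls and 12.7, 8.72, 10.3, 9.76 and 106 CPM in cTKO libraries 1 to 5, so that library 5 was 10.6 times the median of the other 4. The groups overlapped, with control library 3 above 3 of the cTKO libraries, and without library 5 the log2 fold change was 0.95 ± 0.28 at an FDR of 0.16. Col1a1, of collagen I, measured 7.06, 7.41, 14.4, 6.98 and 11.5 CPM in controls and 21.8, 17.7, 12.7, 24.6 and 74.7 CPM in cTKO mice, and its log2 fold change moved from 1.70 ± 0.43 (FDR 0.14) to 1.04 ± 0.23 (FDR 0.052) without library 5. Col5a2, a collagen V chain, moved from 1.49 ± 0.46 to 0.67 ± 0.17 and Col1a2, the partner of Col1a1, from 1.23 ± 0.42 to 0.49 ± 0.17. The median over the 10 fibrillar genes tested was 1.11 with library 5 and 0.58 without it. The 8 meningeal and perivascular fibroblast markers, none of them called, summed to 72.8 to 113 CPM in control and 91.8 to 116 CPM in cTKO neocortex, with a median log2 fold change of 0.22, and 0.16 without library 5. Their part in the fibrillar values was not tested.

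**Figure D1:**
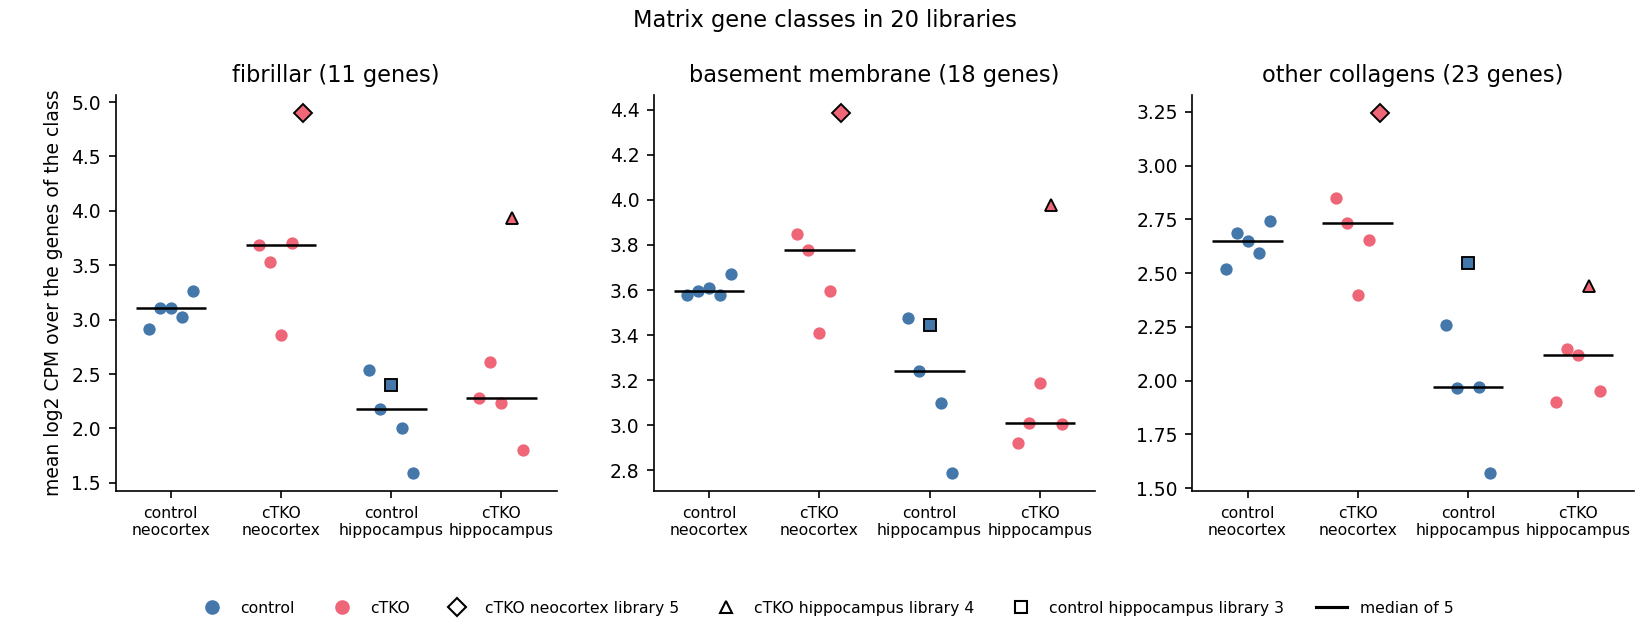
Mean log2 CPM (vertical axis) over the genes of 3 classes in each of the 20 libraries, grouped by genotype and region. Each point is a library, lines are medians of 5, and a diamond (cTKO neocortex library 5), a triangle (cTKO hippocampus library 4) and a square (control hippocampus library 3) mark the libraries that stood apart in cell type markers. Library 5 of the cTKO neocortex and library 4 of the cTKO hippocampus are the highest of their group in every class.

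Col27a1, which encodes a fibrillar collagen known from cartilage, was hardly moved by library 5. It measured 9.97, 12.5, 9.06, 13.0 and 10.7 CPM in control and 30.2, 21.1, 9.07, 47.1 and 24.3 CPM in cTKO neocortex libraries 1 to 5. Of the cTKO libraries, 4 lay above every control, and library 3, at 9.07 CPM, lay within the range of the controls. The log2 fold change of 1.26 ± 0.31 had an FDR of 0.13, and without library 5 it was 1.29 ± 0.32 at an FDR of 0.093. Leaving out cTKO library 3 gave 1.48 at an FDR of 0.0069. That library was the lowest of its group for this gene, so the larger fold change follows from the choice of library. In this test the call thus turned on that library, while edgeR's exact and likelihood ratio tests called Col27a1 with all libraries. That library had the highest sum of 4 oligodendrocyte markers in the neocortex, 5301 CPM. The other cTKO libraries were at 2698.5 to 3536 CPM and the controls at 3357 to 4393 CPM. The part of these markers in the Col27a1 values was not tested. In the hippocampus, Col27a1 measured 5.33, 5.46, 7.13, 4.66 and 4.71 CPM in controls and 17.8, 8.76, 6.73, 18.5 and 4.49 CPM in cTKO mice. These groups overlapped, with a log2 fold change of 1.04 ± 0.34 at an FDR of 0.24, and 0.79 ± 0.32 at an FDR of 0.37 without cTKO library 4 (edgeR quasi-likelihood test). Two-sided exact permutation tests gave p = 0.0397 for the neocortex and 0.0873 for the hippocampus. The study, with its own edgeR run, called Col27a1 higher in both regions, and measured the genes called in both by qRT-PCR in other mice. It reported the same pattern there for most of them, and Col27a1 is not among those it names as short of significance.

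**Figure D2:**
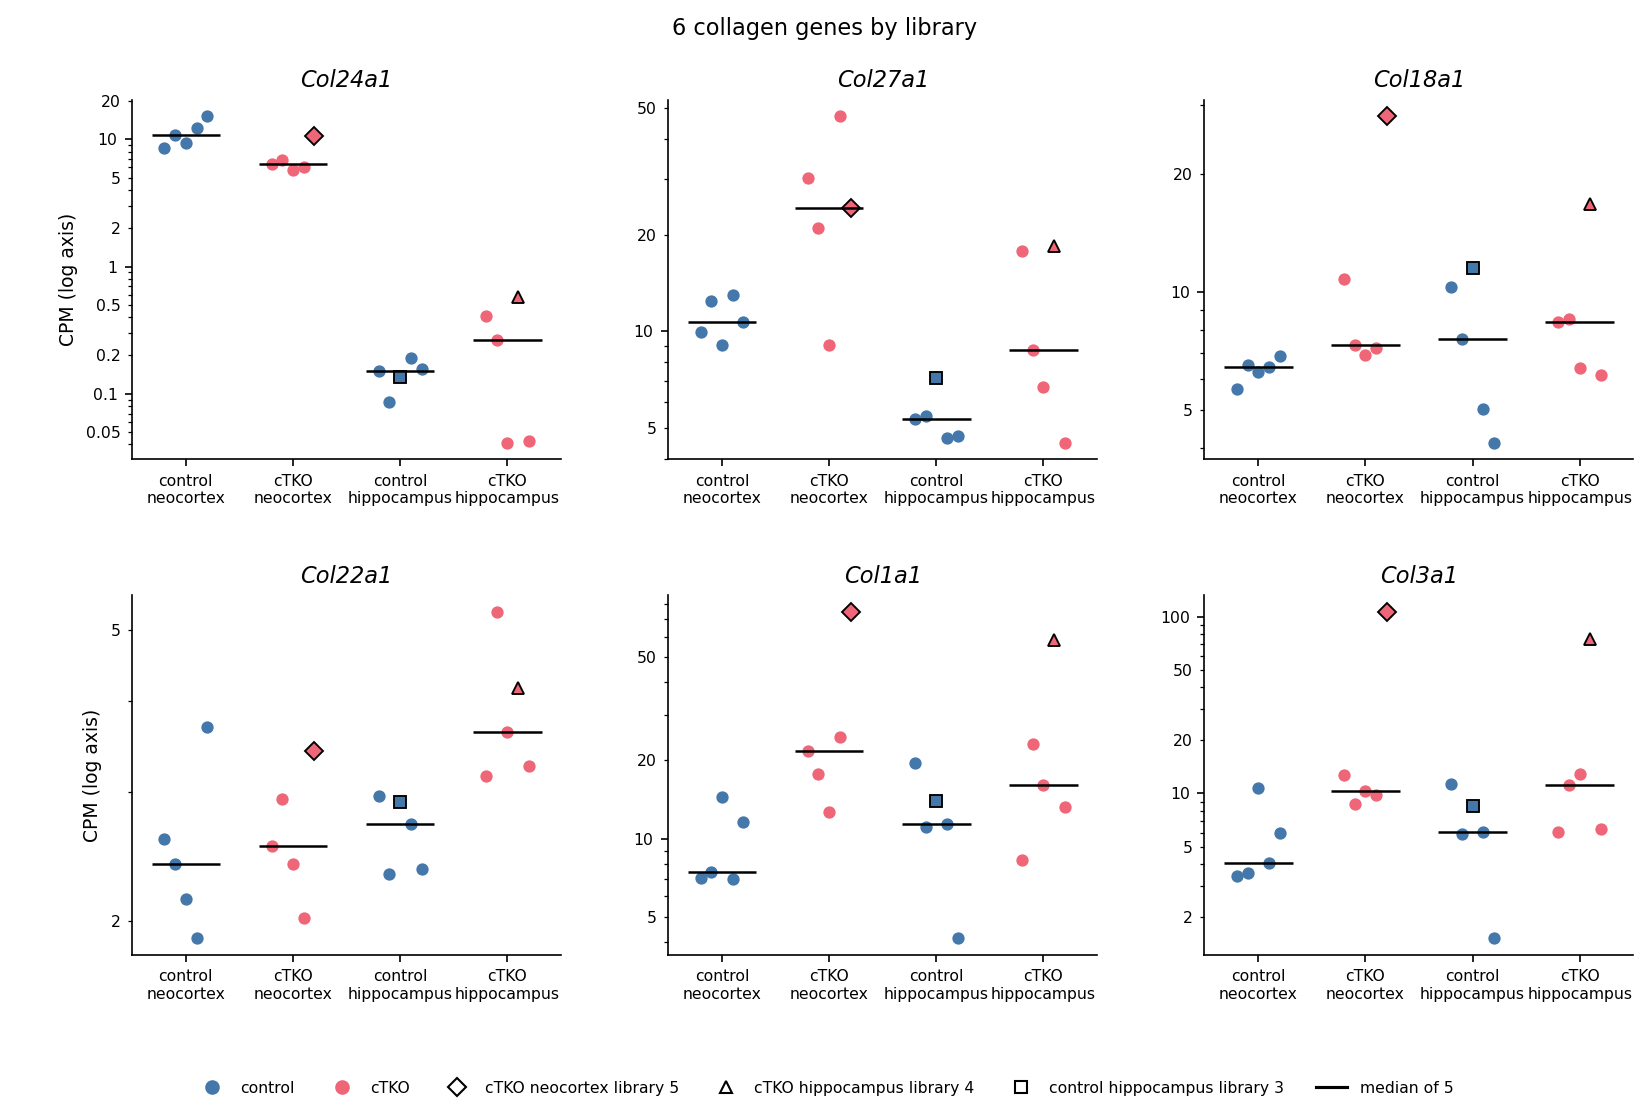
CPM (log axis) of 6 genes in each library, with lines at the median of 5 and a diamond, a triangle and a square for cTKO neocortex library 5, cTKO hippocampus library 4 and control hippocampus library 3. Col22a1 lies higher in every cTKO than in every control hippocampus library, and Col3a1 and Col1a1 are highest in cTKO neocortex library 5 and cTKO hippocampus library 4.

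None of the basement membrane genes was called in the neocortex with all libraries. Of 18 tested, 14 had a log2 fold change above 0, and 5 were higher and 1 lower at an unadjusted p under 0.05. Without library 5, 12 of 17 were above 0, 2 were higher and 1 lower at such a p, and 1 was called, lower. Their median log2 fold change was 0.32 with library 5 and 0.08 without it. Col4a1 measured 56.4 to 63.2 CPM in controls and 63.0 to 91.3 CPM in cTKO mice (log2 fold change 0.33 ± 0.09, FDR 0.19), and 0.24 ± 0.07 at an FDR of 0.15 without library 5. Col4a2 was at 0.30 ± 0.11 with an FDR of 0.36 and hardly moved without library 5 (0.34 ± 0.12, FDR 0.24). Col4a6, a minor collagen IV chain, was at 0.71 ± 0.34 with library 5 and 0.29 ± 0.23 without it. The laminins of vessels were at 0.40 ± 0.18 (Lama4, FDR 0.46), 0.27 ± 0.21 (Lama5), 0.38 ± 0.21 (Lamb1), -0.03 ± 0.10 (Lamb2) and 0.27 ± 0.14 (Lamc1). Lama1, Lama2 and Lamc3 were at 0.22 ± 0.18, 0.11 ± 0.10 and -0.13 ± 0.15. Lama3 was at -0.02 ± 0.14, and Lamb3, which passed the filter largely through cTKO libraries, at 0.69 ± 0.31 with 0.741 to 1.04 CPM in controls and 0.693 to 2.30 CPM in cTKO mice. Nid1 and Nid2, which join the networks, were at 0.55 ± 0.22 (FDR 0.40) and 0.66 ± 0.39, and Hspg2 at 0.44 ± 0.28. In 13 of these 18 genes library 5 was above all 9 other neocortical libraries, and the Hspg2 value there was 54.2 CPM against 16.4 to 23.2 CPM in the others.

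Col4a1 and Col4a2 are read outward from a shared promoter, and their windows at chr8:11312777-11313076 (minus strand) and chr8:11312555-11312854 (plus strand) overlap over 78 bases, shown in capitals.
Col4a1: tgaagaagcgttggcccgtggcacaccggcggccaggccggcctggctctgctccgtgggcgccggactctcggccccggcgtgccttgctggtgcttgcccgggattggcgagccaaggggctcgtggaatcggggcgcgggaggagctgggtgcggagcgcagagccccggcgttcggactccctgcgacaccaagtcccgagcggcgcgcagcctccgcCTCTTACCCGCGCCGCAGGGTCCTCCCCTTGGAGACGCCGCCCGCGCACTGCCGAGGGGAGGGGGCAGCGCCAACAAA
Col4a2: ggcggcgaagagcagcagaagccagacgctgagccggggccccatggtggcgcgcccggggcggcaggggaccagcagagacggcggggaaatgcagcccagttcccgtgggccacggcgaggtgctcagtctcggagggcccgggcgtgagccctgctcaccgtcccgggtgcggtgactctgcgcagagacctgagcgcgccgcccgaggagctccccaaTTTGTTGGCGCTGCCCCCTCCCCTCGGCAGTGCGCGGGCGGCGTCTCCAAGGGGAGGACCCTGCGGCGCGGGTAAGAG
The ratio of Col4a1 to Col4a2 CPM had a median of 0.789 in control and 0.755 in cTKO neocortex, and of 0.827 and 0.793 in the hippocampus. It ranged from 0.653 to 0.854 over the 10 control libraries. The 2 highest ratios of the 20 libraries, 1.05 and 1.07, were those of cTKO neocortex library 5 and cTKO hippocampus library 4, respectively.

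Among the other collagens in the neocortex, 6 of 22 were higher and 2 lower at an unadjusted p under 0.05 and none was called. The direction of the class turned with library 5, as 16 of 22 log2 fold changes were above 0 with it (median 0.17) and 10 without it (median -0.03). Col6a5, a collagen VI chain that passed the filter mainly through cTKO libraries, ranged from 0.626 to 1.91 CPM in controls and from 0.756 to 4.34 CPM in cTKO mice (log2 fold change 1.34 ± 0.43, FDR 0.28). Col18a1, whose product carries endostatin in vessel basement membranes, measured 5.66 to 6.88 CPM in controls and 10.8, 7.35, 6.93, 7.22 and 28.0 CPM in cTKO mice. All cTKO libraries were above all controls, as for 0.787% of genes tested (1.58% in the other direction), but library 3 only by 6.93 against 6.88 CPM. The log2 fold change was 0.92 ± 0.35 at an FDR of 0.37, and 0.35 ± 0.15 at an FDR of 0.34 without library 5. Col6a4 was lower, at 3.29 to 7.43 CPM in controls and 1.86 to 4.61 CPM in cTKO mice (-0.60 ± 0.26, FDR 0.43). Sparc and Fn1 were at 0.10 ± 0.07 and 0.13 ± 0.12.

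In the hippocampus, 1 of 48 members was called, Col6a1, where 0.489% of 13702 genes tested were. At an unadjusted p under 0.05 there were 8 members, 5 higher and 3 lower, where 6.13% of all genes tested were higher and 5.88% lower. Without cTKO library 4 there were 3, all higher. In that fit Col6a1 was again the 1 of 48 called, beside 0.484% of 13643 genes. The median log2 fold change over the 48 members was 0.14, and -0.13 without cTKO library 4.

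Col6a1, the alpha-1 chain of collagen VI, rose in the hippocampus of cTKO mice by 2.96-fold. It measured 18.9, 14.7, 21.2, 11.8 and 11.6 CPM in control libraries 1 to 5 and 42.4, 79.9, 26.0, 40.3 and 43.4 CPM in cTKO libraries 1 to 5. Every cTKO library lay above every control, as for 1.91% of all genes tested (1.23% in the other direction, with no member), and library 4 lay inside the range of its group. The log2 fold change was 1.57 ± 0.26 with an FDR of 0.021, and without cTKO library 4 it was 1.61 ± 0.28 with an FDR of 0.032 (edgeR quasi-likelihood test). The exact permutation p was 0.00794, the smallest possible (two-sided). The call did not hold in every setting, as the FDR was 0.054 with robust dispersions and between 0.059 and 0.083 without control library 1, 2, 4 or 5, at log2 fold changes of 1.48 to 1.64. In the neocortex, Col6a1 measured 48.4, 55.0, 65.5, 74.4 and 72.7 CPM in controls and 92.3, 103, 67.3, 81.7 and 87.9 CPM in cTKO mice. There, 4 of the 5 cTKO libraries were above all controls, and the log2 fold change of 0.46 ± 0.13 had an FDR of 0.20.

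Neither chain that assembles with it was called in the hippocampus. Col6a2 measured 14.1, 8.89, 10.5, 5.09 and 5.34 CPM in controls and 7.96, 10.5, 9.54, 14.9 and 12.9 CPM in cTKO mice, overlapping groups with a log2 fold change of 0.34 ± 0.26. Col6a3 measured 1.2 to 3.52 CPM in controls and 2.03 to 3.98 CPM in cTKO mice (-0.02 ± 0.29). The ratio of Col6a1 to Col6a2 CPM ranged from 1.34 to 2.32 in control and from 2.70 to 7.60 in cTKO hippocampus, with no overlap. In the neocortex it ranged from 3.37 to 4.62 in controls and from 2.39 to 4.63 in cTKO mice. The ratio of Col6a1 to Col6a3 likewise ranged from 4.86 to 9.65 in control and from 10.1 to 36.5 in cTKO hippocampus, and from 11.1 to 23.3 and from 14.7 to 21.2 in the neocortex. These pairs were chosen after the Col6a1 values were seen, and their differences are given without a test. Fibroblasts are a known source of collagen VI, and 8 meningeal and perivascular fibroblast markers summed to 131 to 310 CPM in control and 110 to 180 CPM in cTKO hippocampus, none of them called and none at 0 counts.

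**Figure D3:**
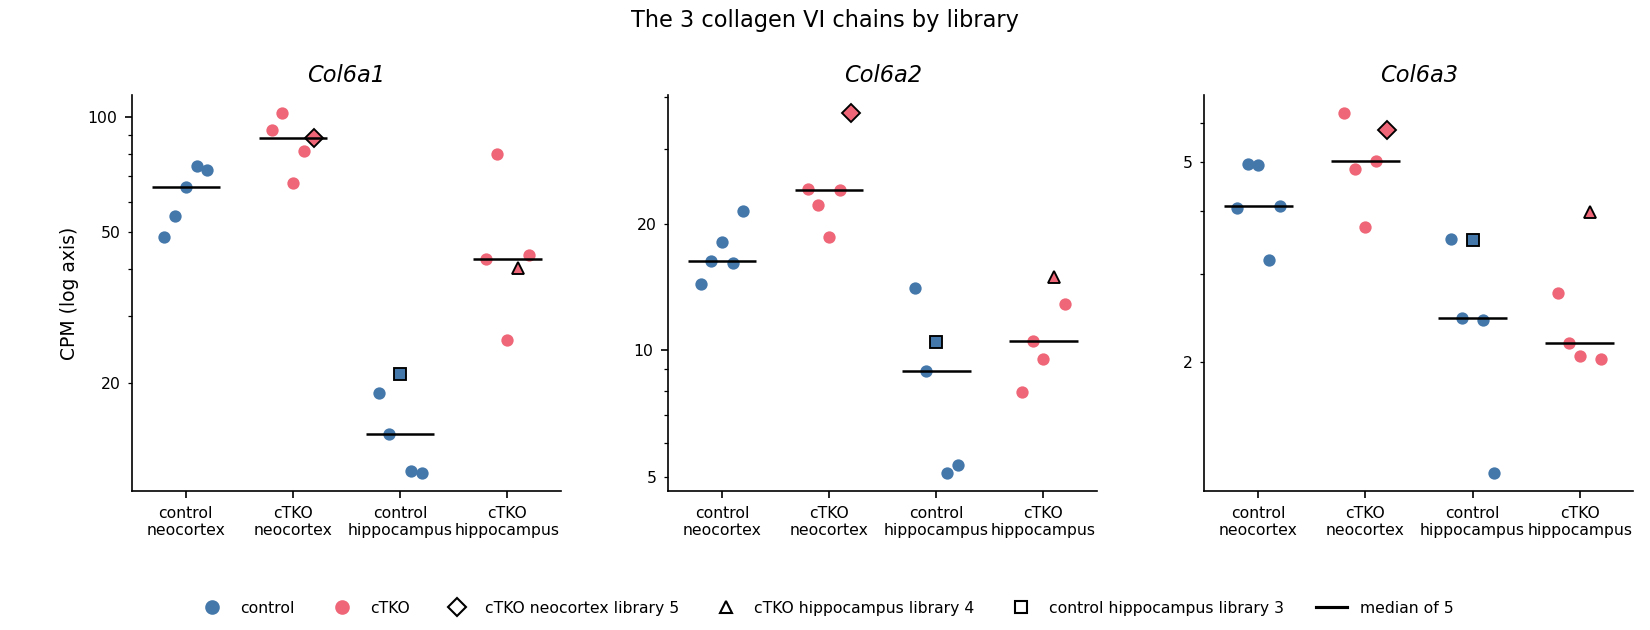
CPM (log axis) of Col6a1, Col6a2 and Col6a3 in each library, with lines at the median of 5. In the hippocampus the cTKO libraries lie above all controls for Col6a1, from 26.0 to 79.9 against 11.6 to 21.2 CPM, and overlap them for Col6a2 and Col6a3.

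The other hippocampal values were smaller against their spread. Col22a1, a collagen of tissue junctions, measured 2.97, 2.32, 2.91, 2.71 and 2.35 CPM in controls and 3.16, 5.30, 3.63, 4.17 and 3.26 CPM in cTKO mice, again without overlap, but with a log2 fold change of 0.56 ± 0.18 at an FDR of 0.23. Col8a1, a network collagen of vessel walls, was at -1.34 ± 0.60 with an FDR of 0.39. It measured 4.68, 3.91, 17.7, 2.90 and 1.05 CPM in controls, the 17.7 being library 3 with the choroid plexus markers, and 1.19 to 4.32 CPM in cTKO mice. Its partner Col8a2 measured 10.9 CPM in that control library and 1.2 to 3.97 CPM in the other controls. Col6a4 was at -1.01 ± 0.43 with an FDR of 0.38. The fibrillar genes had 9 of 9 log2 fold changes above 0 and 6 of 9 without cTKO library 4, with medians of 0.43 and 0.17. Col3a1 measured 11.4, 5.93, 8.50, 6.09 and 1.52 CPM in controls and 6.03, 11.2, 12.8, 74.2 and 6.31 CPM in cTKO mice, and its log2 fold change moved from 1.72 ± 0.69 to 0.43 ± 0.41 without library 4. Col1a1 moved from 0.98 ± 0.48 to 0.32 ± 0.36.

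For the basement membrane genes of the hippocampus, the sign of the median turned with cTKO library 4. With it, 12 of 17 log2 fold changes were above 0 and their median was 0.09, and without it 14 of 17 were below 0 and the median was -0.15, with 0 called and 0 at an unadjusted p under 0.05 in both cases. All 10 laminins tested were below 0 without it, between -0.55 ± 0.26 (Lama1, FDR 0.44) and -0.04 ± 0.10 (Lamc1), where 6 were above 0 with it. Lama4 moved from 0.15 ± 0.33 to -0.23 ± 0.26, Lama5 from 0.29 ± 0.29 to -0.15 ± 0.15, and Hspg2 from 0.33 ± 0.32 to -0.18 ± 0.16. Lama2, Lamb1, Lamb2 and Lamc3 were at 0.01 ± 0.12, -0.01 ± 0.14, 0.01 ± 0.15 and -0.31 ± 0.23 with all libraries. Nid1 and Nid2 were at 0.09 ± 0.28 and -0.02 ± 0.35, and Sparc and Fn1 at 0.02 ± 0.12 and -0.00356 ± 0.22. The median of all tested genes was 0.00492 with library 4 and -0.00294 without it. Markers of endothelium summed to 165 to 230 CPM in control and 138 to 213 CPM in cTKO hippocampus, and those of pericytes and smooth muscle to 150 to 241 and 137 to 187 CPM. Without cTKO library 4 the cTKO sums reached 174 and 163 CPM. The median log2 fold change of the endothelial markers was -0.12 with that library and -0.22 without it. For the pericyte and smooth muscle markers it was -0.20 and -0.23, and no marker of either list was called. Their part in these values was not tested.

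The 2 cTKO libraries with embryonic markers stood above the rest over the matrix genes as a whole. Cortex library 5 was above all 9 other neocortical libraries in 28 of 52 members (53.8%), beside 16.0% of all genes tested, and hippocampus library 4 in 28 of 48 (58.3%), beside 15.2%. Against the median of the other 4 cTKO libraries, 17 members were over 2 times as high in cortex library 5 and 21 in hippocampus library 4, shares of 32.7% and 43.8% beside 2.69% and 2.57% of all genes. The ratio was highest for Col2a1, the cartilage collagen, at 28.1 (15.1 against a median of 0.536 CPM) and 21.4 (10.2 against 0.478 CPM), and for Col3a1 at 10.6 and 8.49. Col9a1, another cartilage collagen, was at 5.77 and 4.38, Col6a6 at 5.07 and Col5a2 at 4.74 in cortex library 5, and Col4a6 at 4.49 and Col13a1 at 4.15 in hippocampus library 4. Col11a2 in hippocampus library 4 was below all 9 others, at 12.2 against 13.5 to 20.2 CPM. Control hippocampus library 3 was above the other 9 in 5 of 48 members (10.4%), beside 9.97% of all genes.

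**Figure D4:**
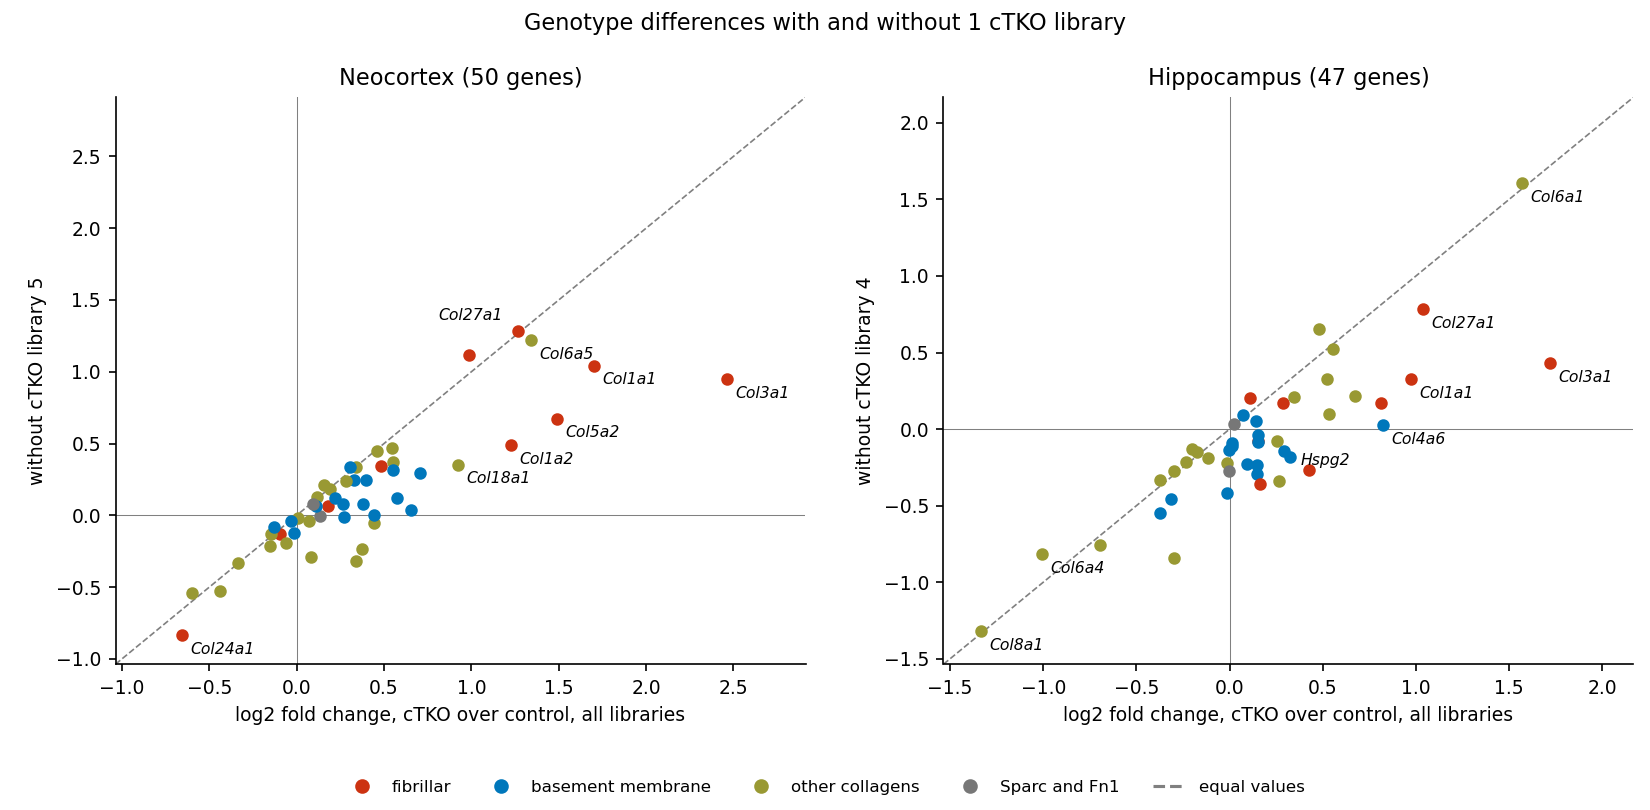
Log2 fold change of each member between genotypes with all libraries (horizontal axis) and without cTKO neocortex library 5 or cTKO hippocampus library 4 (vertical axis), coloured by class. Points on the dashed line did not move. Col3a1 moved from 2.46 to 0.95 in the neocortex, while Col6a1 in the hippocampus was at 1.57 and 1.61.

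Whether a member's genotype difference differed between the regions was tested as an interaction. Of 54 members tested for the region by genotype interaction, 0 were called, beside 0.0564% of 14192 genes, and 3 (Col6a1, Col24a1 and Lamb3) had an unadjusted p under 0.05, beside 3.75% of genes. The DESeq2 Wald test and the likelihood ratio test also called 0. For Col6a1 the hippocampal log2 change exceeded the neocortical one by 1.11 ± 0.31, with an unadjusted p of 0.0018 and an FDR of 0.49 by edgeR's quasi-likelihood test. That fit takes the regions as independent libraries, although the mice gave both. With a block for genotype and library number the Col6a1 difference was 1.05 ± 0.24. Its unadjusted p was 6.56e-04 and its FDR 0.18 (edgeR quasi-likelihood test), and again 0 of 54 were called. That block takes same-numbered libraries as the same mouse. In cTKO mice, numbers 4 and 5 did not deviate together between the regions (r of -0.06 and -0.07), so this p rests on an unproven pairing. For Col27a1 the difference was -0.22 ± 0.50. Of the 47 members tested in both regions, 5 (Col27a1, Col3a1, Col6a1, Col6a4 and Col8a1) had an unadjusted p under 0.05 in the same direction in both, beside 3.19% of 13469 genes. Without the 2 cTKO libraries with embryonic markers, Col27a1 and Col6a1 did, 2 of 47, beside 3.41% of 13396 genes.

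The genes that process, bind and turn over this matrix were not called with all libraries. In the neocortex, 0 of 25 tested genes of collagen processing, 0 of 19 matrix receptors, 0 of 8 genes of matrix turnover, and 0 of 14 small leucine-rich proteoglycans and basement membrane partners were called. In the hippocampus it was 0 of 28, 19, 8 and 13. Over the 4 lists, 12 genes were higher and 1 lower at an unadjusted p under 0.05 in the neocortex (beside 5.57% and 4.86% of all genes), and 3 were higher and 3 lower in the hippocampus (beside 6.13% and 5.88%). Without cTKO neocortex library 5 it was 9 and 3, and 2 were called, both higher, beside 0.966% of all genes. Tll1, a tolloid protease that cleaves procollagens, measured 2.05, 1.49, 1.89, 1.37 and 1.81 CPM in controls and 5.56, 2.99, 3.78, 3.61 and 2.37 CPM in cTKO mice, with no overlap, as for 0.787% of all genes (log2 fold change 1.10 ± 0.23, FDR 0.088 with all libraries, and 1.2 ± 0.21, FDR 0.018 without library 5). Timp2, an inhibitor of matrix metalloproteinases, measured 369 to 430 CPM in controls and 547, 541, 497, 759 and 416 CPM in cTKO libraries 1 to 5 (0.54 ± 0.10, FDR 0.029 without library 5).

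Between the 2 regions of control mice, most members differed, as most genes did. Of 51 members tested, 32 were called, 5 higher and 27 lower in the hippocampus, where 59.1% of 13832 genes were called, 29.8% higher and 29.2% lower. The groups did not overlap for 3 members higher and 20 lower in the hippocampus, as for 22.4% and 21.8% of all genes. The median log2 fold change was -0.47 over the members and 0.01 over all genes. No label pairs the control libraries of the 2 regions, but same-numbered ones correlated in these data and were taken as pairs. With the number as a block 34 were called, where 61.4% of genes were, Col20a1 and Col9a3 being added.

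Col24a1 had the largest difference, with 8.54 to 15.2 CPM in the neocortex and 0.0859 to 0.190 CPM in the hippocampus (log2 fold change -6.23 ± 0.25, FDR 2.6e-11, a fitted value that rests on 2 to 4 hippocampal counts per library). Col28a1, a collagen of the peripheral nervous system, was at -2.23 ± 0.35, with 0.151 to 0.523 CPM in the hippocampus, Col6a1 at -2.01 ± 0.16 and Col5a1, of collagen V, at -1.94 ± 0.16. Col19a1, at 46.5 to 68.5 CPM in the neocortex and 18 to 23.4 CPM in the hippocampus, was also lower (-1.47 ± 0.10). All 4 collagen VI genes tested here were lower in the hippocampus. Of the laminins, Lama3 (-1.58 ± 0.15), Lama4 (-0.77 ± 0.21), Lama5 (-0.76 ± 0.12) and Lamc1 (-0.22 ± 0.05) were lower. Col4a1 and Col4a2 were lower by similar amounts, -0.52 ± 0.10 and -0.58 ± 0.09, as were Hspg2 (-0.70 ± 0.13) and Fn1 (-0.47 ± 0.10).

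The 5 genes higher in the hippocampus without the block were Col8a2 (2.10 ± 0.53), Lamb1 (1.09 ± 0.07), Sparc (1.01 ± 0.08), Col4a5 (0.64 ± 0.24) and Col25a1 (0.44 ± 0.08). With the block Col9a3 was also called higher (0.49, FDR 0.039, edgeR quasi-likelihood test). Lamb1, the beta-1 laminin chain, ranged from 34.8 to 40.8 CPM in the hippocampus and from 16.4 to 19.6 CPM in the neocortex, so that it went the opposite way from Lamc1 and Lama5, with which it assembles. Sparc ranged from 334 to 432 CPM and from 155 to 203 CPM. Col8a2 and Col4a5 overlapped between the regions, and choroid plexus markers, 78.8 to 2756 CPM in the control hippocampus and 10.6 to 15.9 CPM in the control neocortex, differed as well. Lamb2, Lamc3, Lama1, Lama2, Nid1 and Nid2 were not called, at -0.22 ± 0.12, -0.31 ± 0.19, -0.18 ± 0.20, -0.03 ± 0.07, 0.11 ± 0.19 and 0.39 ± 0.24.

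**Figure D5:**
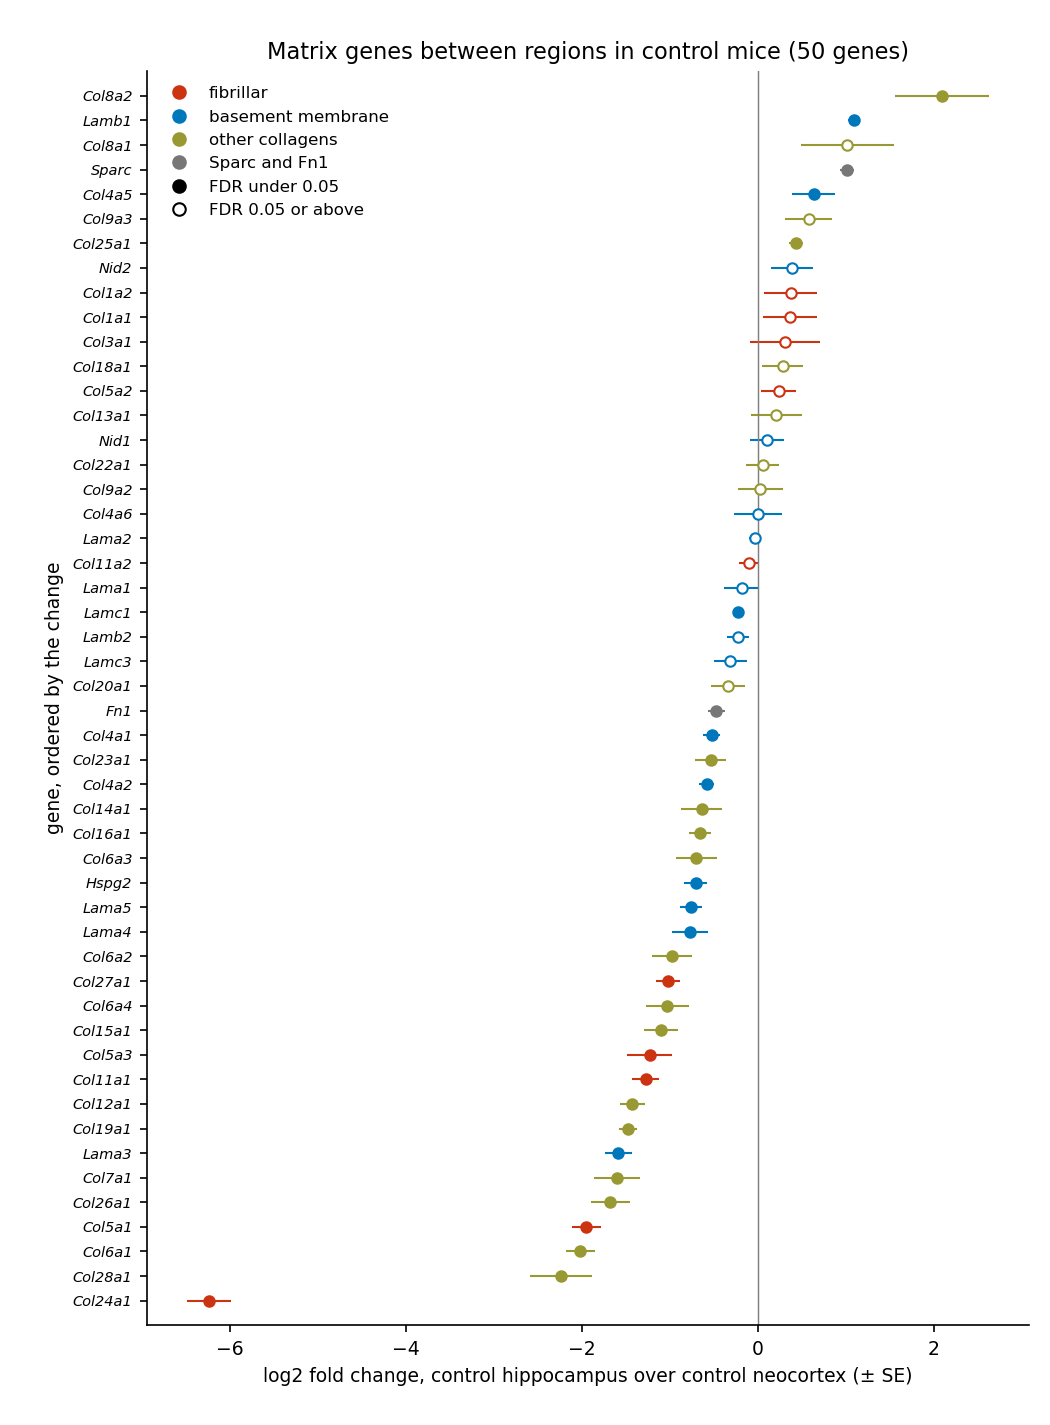
Log2 fold change (± SE) between control hippocampus and control neocortex for 50 members, from the fit without a block. Members are ordered by size and coloured by class, with filled points for an FDR under 0.05. The filled points number 26 on the left of 0 and 5 on the right, from Col24a1 at -6.23 to Col8a2 at 2.10.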

How the data were processed

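Gene counts for 20 libraries were used as deposited. The authors made these counts with poly-A selected single-end reads, STAR 2.5.4a on mm10 and HTSeq, and the strand setting and annotation are not given in the sources used here. Libraries were grouped by the labels. Each comparison was fitted over all genes with CPM above 1 in at least 5 libraries, with TMM scaling and the edgeR 4.0.16 quasi-likelihood test in R 4.3.3, adjusted by Benjamini-Hochberg at 0.05. Alternatives used other edgeR tests, DESeq2 1.42.0, other scaling and filters, a replicate block and leaving out libraries. The fitting code was tested on simulated data. Levels are CPM, log2 CPM has a prior count of 2, and exact permutation tests were run for Col6a1, Col24a1 and Col27a1. Floors of 3 counts cover counting error only, since reads had no molecular identifiers. The members, lists and motifs were chosen with earlier results of these data known. Members were named by rule: calls, the 3 largest differences per class, the highest levels, the 5 highest ratios in the libraries that stood apart, the 5 largest region differences each way, and laminins and nidogens; 1 member is counted in the totals but not reported here or drawn by gene. Per the study's methods, both regions came from the same 5 mice per genotype, and neither these nor the labels tie a library number to a mouse. Same-numbered control libraries of the 2 regions deviated together (r from 0.13 to 0.33 over 14192 genes), so their numbers were taken as pairs in the blocked fit. Those of cTKO libraries 1 to 3 did as well (0.32 to 0.40), and 4 and 5 did not (-0.06 and -0.07). Neocortical cTKO library 4 matched best with hippocampal library 2, and neocortical library 5 with hippocampal library 4.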

Additional observations from a re-analysis of the deposited data

Results flagged for a closer look

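In 37 of 200 groups of 5 libraries examined, 1 library stood farther from the others than Dixon's limit of 0.71 of the range, where chance gives about 1 in 20 groups. Cortex library 5 of the cTKO mice was the high one for 14 genes, with CPM values of Col14a1 5.194, Col15a1 16.695, Col18a1 28.047, Col1a1 74.719, Col1a2 98.389, Col24a1 10.536, Col26a1 12.54, Col3a1 106.4, Col4a5 10.24, Col5a2 44.297, Hspg2 54.166, Lama5 31.09, Lamb1 40.81, Nid2 15.137. Hippocampus library 4 of the cTKO mice was the high one for 15, with CPM values of Col12a1 12.931, Col15a1 7.1837, Col16a1 27.298, Col18a1 16.81, Col1a2 71.31, Col26a1 5.7469, Col3a1 74.231, Col4a5 11.542, Col4a6 7.9499, Col5a1 25.622, Col5a2 28.878, Hspg2 33.045, Lama4 12.787, Lama5 22.653, Nid2 10.105. These are the libraries with embryonic and mitotic markers, and 10 genes are in both sets, among them the fibrillar Col1a2, Col3a1 and Col5a2 and the basement membrane genes Hspg2, Lama5, Nid2 and Col4a5.

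Control hippocampus library 3, with the choroid plexus markers, was high at Col8a1 17.676, Col8a2 10.86, Col9a3 19.312 CPM and low at Lama2 17.404 CPM. The remaining values were low for Col13a1 0.73257 CPM in control hippocampus library 5 and Sparc 154.96 CPM in control neocortex library 1, and high for Col28a1 2.306 CPM in control neocortex library 3 and Sparc 530.43 CPM in cTKO hippocampus library 1.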

How the results depend on the processing

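In the neocortex, where 0 members were called, the exact and likelihood ratio tests of edgeR called 4 each (among them Col1a1, Col27a1 and Col3a1), DESeq2 called 3 (among them Col4a1 and Col6a1), and fitting without a filter called 1. Leaving out 1 library gave 0 to 4 calls, with 1 without cTKO library 1, 4 without cTKO library 3 (among them Col1a1, Col27a1 and Col4a1) and 2 without cTKO library 5. Apart from the fit without cTKO library 5, the shares of all genes called in these neocortical settings are not given here. Those counts were therefore not compared with a general rate. In the hippocampus, the 1 call (Col6a1) was lost, to 0, with robust dispersions and without control library 1, 2, 4 or 5, a range of 0 to 1 over single libraries, and also without control library 3 and cTKO library 4 together (log2 fold change 1.74, FDR 0.052 by edgeR), a setting chosen after seeing the data. The interaction gave 0 calls in every alternative run, and the region comparison 28 to 37. For the region comparison the share of all genes called was 59.1% without and 61.4% with the replicate block. It is not given here for the other region settings, so their counts were not compared with it. With the replicate block between genotypes 1 member was called in the neocortex and 0 in the hippocampus (Col6a1 at 1.52, FDR 0.051), and over all genes the calls went from 26 to 12 and from 67 to 58; same-numbered libraries of the genotypes correlated at -0.0091 to 0.22 in the neocortex, where 4 of 5 controls matched best with their own number, and at -0.14 to 0.14 in the hippocampus. Not every pair was over 0.1, so they were not taken as pairs. No called value changed direction. Class medians did, the basement membrane one in the hippocampus (to -0.15) and the other collagens in the neocortex (to -0.03) without the libraries with embryonic markers, and the other collagens in the hippocampus (-0.07) in 6 settings, at 0.02 to 0.20. The causes were not tested. Of the other alternatives, 673 values kept their side of the threshold, 20 passed it and 7 lost it. Members near 1 CPM, such as Lamb3 and Col6a5, rest on few counts.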
